A study of Mus musculus with 3 samples.

Results

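The mRNA 5-methylcytosine (m5C) sites of chromatin modifiers and remodelers were followed from the mouse germinal vesicle (GV) oocyte through the metaphase II (MII) oocyte to the 1-cell embryo. Members were chosen by gene name alone. They were the genes whose names start with Kdm, Kmt, Setd, Hdac, Sirt, Ehmt, Kat and a digit, Brd and a digit, Chd and a digit, Smarc, Arid, Dnmt, Ezh, Phf, Baz, Ino80 or Prdm, together with the Tet genes, Eed and Suz12, and 1 gene of these names was left out beforehand. The rule gave 120 genes of the 8353 with a called site, and 904 distinct sites of 40298. A naming rule also takes in genes with other roles, such as Phf5a, a splicing factor subunit, and Sirt5, a mitochondrial enzyme. The rule took in Chd3os as well, a gene on the strand opposite to Chd3 with a coding sequence of 570 nt.

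Each stage was represented by 1 bisulfite library from wild-type C57BL/6J mice, so that no value below has a replicate check. Bisulfite turns unmodified cytosine (C) into uracil while m5C is kept, and the level of m5C at a C is the percentage of its reads left unconverted. GV oocytes, which are fully grown and arrested before meiotic maturation, came from minced ovaries of females aged 7 to 8 weeks, 48 h after a dose of 10 IU PMSG (pregnant mare serum gonadotrophin). MII oocytes, which are mature eggs, came from oviducts of females of the same age, 12 h after 5 IU of human chorionic gonadotrophin (hCG) and a priming dose of 10 IU PMSG. The 1-cell embryos were flushed from mated females of 7 to 8 weeks 24 h after 5 IU of hCG, with 5 IU of PMSG as the priming dose. For both, 44 to 48 h lay between the hormones. The doses are those of the labels, and a higher hCG dose for the oocytes is given in the study's methods. The labels name polyadenylated RNA where the methods name RNA depleted of ribosomal RNA, and they describe the conversion of the oocytes and of the embryos in different words. Stage cannot be told apart from library batch.

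Chromatin is modified by enzymes that write, erase or read methyl and acetyl groups on histones, by enzymes that methylate DNA or oxidize its methyl groups, and by ATP-driven complexes that move nucleosomes. The fully grown oocyte is silent in transcription, and the proteins that reset the egg and sperm genomes after fertilization are made largely from mRNAs stored in the oocyte. In mRNA, m5C is placed by NSUN2 at Type I sites, which lie before G-rich bases at the 5′ side of a stem, and by NSUN6 at Type II sites, which lie at the motif CTCNA in genome letters. Here, as in the study, sites at CTCNA were counted as Type II and all other sites as Type I. No limit on G content or stem was set for Type I.

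The following windows show both types in the members with the deepest or largest changes reported below. Each runs 5′ to 3′ on the strand of the gene in GRCm38 letters, with the methylated C and the 4 bases after it in capitals. Type I windows are shown for Tet3 in its 5′ UTR and its coding sequence, Arid1b, Phf1, Dnmt1, Kdm6b, Kat5 and Ezh1.
Tet3, chromosome 6 minus strand, 83455434: agaagtgtCAGGAggaaactcctca
Tet3, chromosome 6 minus strand, 83368814: gatgggaaCCGGGgatttcaacccc
Arid1b, chromosome 17 plus strand, 5341765: gccgagtgCAGGAgttcagcagcgg
Phf1, chromosome 17 plus strand, 26934466: acagtgctCGAGAggtgtgtctggt
Dnmt1, chromosome 9 minus strand, 20909236: actgttccCAGGAtcagattggcgt
Kdm6b, chromosome 11 minus strand, 69400282: aggtacagCGGGAgagcctggtgcg
Kat5, chromosome 19 minus strand, 5608867: aggccatcCCAGGtggcgagcctga
Kat5, chromosome 19 minus strand, 5608866: ggccatccCAGGTggcgagcctgac
Ezh1, chromosome 11 minus strand, 101192819: ctgcataaCTAGGcctccactttat
Type II windows, in which the capitals spell CTCNA, are shown for the 3 such sites with most reads among those called at every stage.
Tet3, chromosome 6 minus strand, 83364716: gcccagccCTCCAgggtgctgcttt
Phf5a, chromosome 15 minus strand, 81865568: gctctgttCTCCAcattgatccttt
Smarcb1, chromosome 10 minus strand, 75897028: tgctcgacCTCTAcggagcatctca
The 2 neighbouring C of Kat5 are both called sites, and their windows differ by a shift of 1 base.

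The embryo library stood apart in depth. Reads at called sites of all genes summed to 4475058 at the GV stage, 5285011 at the MII stage and 2616279 at the 1-cell stage, and the members held 3.19%, 2.70% and 2.24% of them. A list holds called sites alone, with at least 20 reads, a level of at least 10% and at least 5 unconverted reads, and an absent C may have been unmethylated, under these limits or unread. The deposited embryo list differs in coverage and level from the table given with the study, and the embryo values describe the deposited list. All 12 oocyte marker genes had a called site in at least 1 list, and 9 of 12 granulosa cell markers, Foxl2 and Fshr among them, had none. The granulosa markers with a site had 1, 2 and 6 sites in the GV, MII and embryo lists, against 9, 15 and 29 for the oocyte markers. The GV site and all 6 embryo sites lay in Nr5a2, and the 2 MII sites in Amh and Cyp19a1. In bulk samples such as these, fewer cells of a type and less RNA per cell cannot be told apart.

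The chromatin genes held more called sites at each later stage. They held 367 sites in 103 genes at the GV stage (exact Poisson 95% interval 330 to 407, which covers counting error only), 469 sites in 107 genes at the MII stage (428 to 513) and 574 sites in 100 genes at the 1-cell stage (528 to 623). The intervals did not overlap. As a share of the whole list this was 2.31%, 2.27% and 2.30%, so the increase was that of the lists as a whole. The order rested on shallow sites. With a minimum of 100 reads the members held 251, 298 and 171 sites. Per gene with a site, the members held 3.56, 4.38 and 5.74 sites against 2.60, 3.07 and 3.90 over all genes. The reference transcripts of the members were longer, with a median of 4660.5 nt against 3157 nt over all genes with a site. Per kb of reference transcript the members held 1.47 sites against 1.31, a difference that was not tested. These values count every site of a gene, also those that lie on its other transcripts alone.

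**Figure D1:**
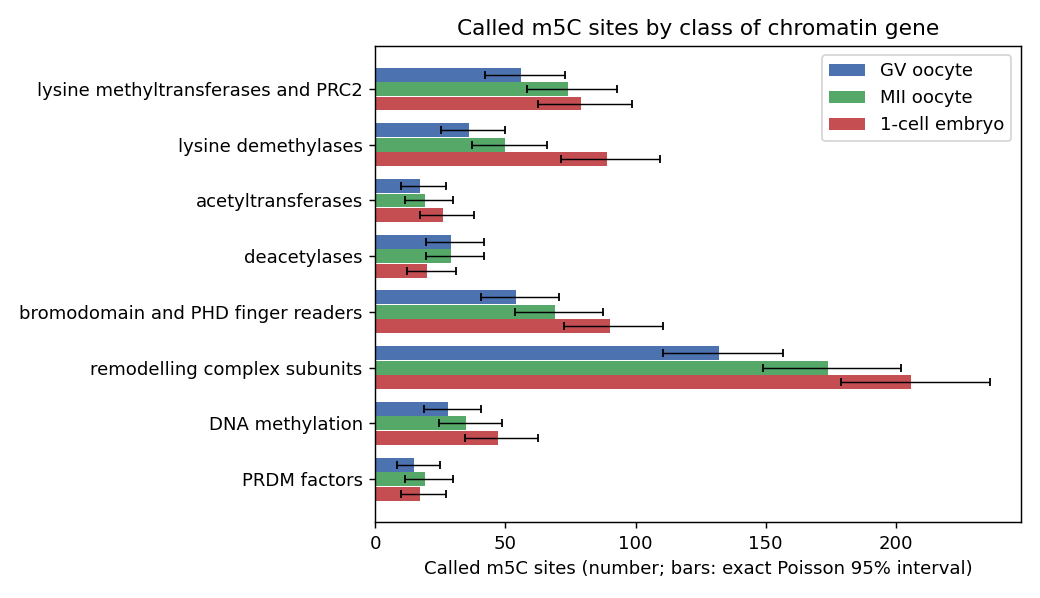
Number of called m5C sites in the lists of GV oocyte, MII oocyte and 1-cell embryo for the 8 classes of chromatin genes (bars, with exact Poisson 95% intervals for counting error). Subunits of remodelling complexes held the most sites at every stage, from 132 in the GV oocyte to 206 in the embryo, and the deacetylases were the only class with fewer sites in the embryo (20) than in the GV oocyte (29), by less than their intervals.

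The median level of the member sites was 18.2% (95% interval 17.1% to 20.0%) at the GV stage, 19.4% (18.4% to 21.2%) at the MII stage and 24.1% (22.2% to 25.6%) at the 1-cell stage. Over all sites it was 19.5%, 19.8% and 23.8%. The median coverage of a member site was 181, 159 and 61 reads, against 121, 107 and 58 over all sites, so the oocyte values of these genes rest on deeper reads than most. With a minimum of 50 reads the median levels of the members were 17.7%, 18.9% and 18.2%, and the higher embryo median was no longer seen. Sites at a level of 50% or more numbered 44 at the GV stage, 58 at the MII stage and 98 at the 1-cell stage, which is 12.0%, 12.4% and 17.1% of member sites against 11%, 11.9% and 16.7% of all sites.

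Most members by name had a called site. Of 161 protein-coding genes annotated under these names, 119 were members and 41 had no called site. The last one, Kat14, had sites under an older name and so was not taken in. With it, 74.5% of these genes had a called site, against 36.5% of all 22028 protein-coding genes annotated, a difference that was not tested. Chd3os, the remaining member, was not among the 161 annotated genes. Remodelling subunits were the most complete class, with 38 of 42 genes, and the PRDM factors the least, with 6 of 14. Tet1 and Tet2, the relatives of Tet3, had no called site, and neither had Ezh2, the main Polycomb methyltransferase, Hdac1, a class I deacetylase, or Prdm9, which places meiotic crossovers. From a list of 40 chromatin genes named in textbooks for the oocyte and early embryo, 34 had a site, and the others were Kdm5b, Kmt2a, Setd2, Ezh2, Hdac1 and Sirt1.

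Sites were unevenly spread over the members. Kmt2d had 42 distinct sites, which ranked 4 among all 8353 genes, and Tet3 had 31, which ranked 17. Arid1b followed with 28, Arid1a with 25, and Kdm6b and Kmt2c with 24 each. At the other end, 28 of 103 genes at the GV stage, 23 of 107 at the MII stage and 21 of 100 at the 1-cell stage had a single site.

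**Figure D2:**
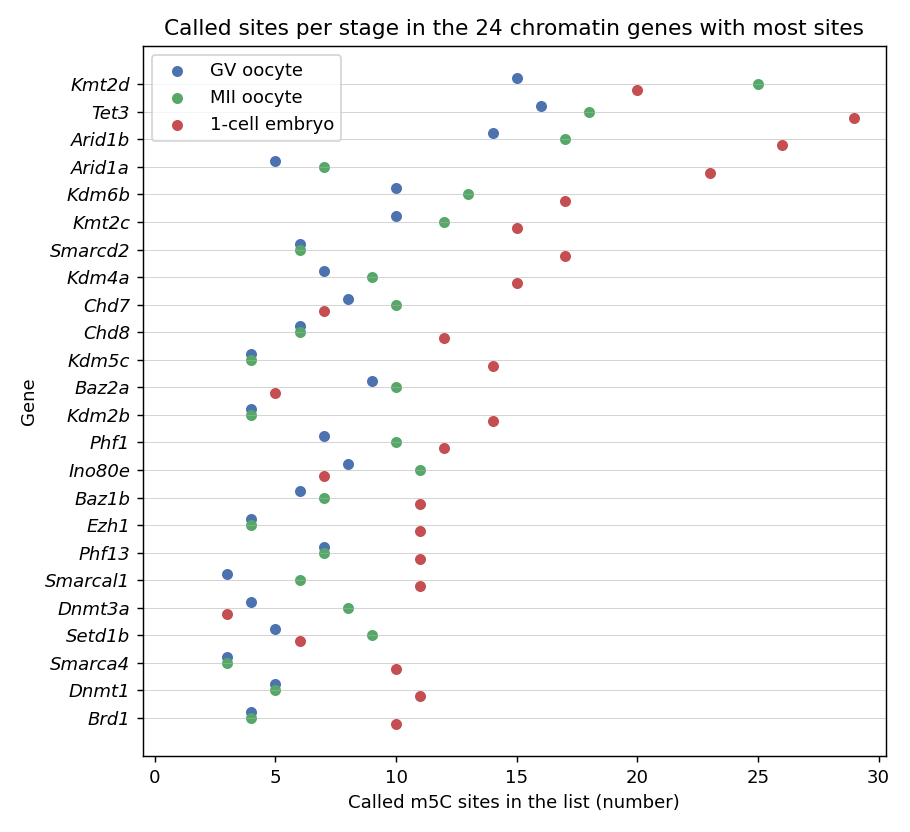
Number of called sites in each list for the 24 chromatin genes with most distinct sites, 1 point per stage. Arid1a went from 5 and 7 sites in the oocytes to 23 in the embryo, while Chd7 and Baz2a had fewer sites in the embryo than in the MII oocyte.

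Comparing lists, 150 of the 904 sites were called at every stage, 160 in both oocytes but not in the embryo, and 378 in the embryo alone. The rest were called in the MII oocyte alone (121), in the GV oocyte alone (49), in the MII oocyte and embryo (38) or in the GV oocyte and embryo (8). The split was close to that of the whole lists, with 16.6% of member sites against 15.2% of all sites at every stage, 17.7% against 16.9% in both oocytes without the embryo, and 41.8% against 41.3% in the embryo alone. Those of every list were the deepest, with a median of 415 reads in the GV oocyte against 128 for those of both oocytes alone. Sites of the embryo alone had a median of 56 reads and a median level of 18.5%. The 3 genes with most sites of the embryo alone were Arid1a (18), Kmt2d (17) and Tet3 (13), and those with most sites of both oocytes without the embryo were Kmt2d (13), Baz2a (9) and Chd7 (7).

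Levels at shared sites were then compared between stages. Reads of each site called in both lists were tested with Fisher's exact test, two-sided, with Benjamini-Hochberg adjustment over all shared sites of all genes. Such a test compares the reads of 2 libraries, not the stages, and the 3 comparisons share libraries, so that their values stand side by side and are not independent.

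In the MII oocyte against the GV oocyte, the members shared 310 sites. The level was higher in the MII oocyte at 85 of them and lower at 3 (adjusted p under 0.05), where 19.6% of all shared sites were higher and 0.965% lower. The 85 sites are 27.4% of those shared. With reads divided by 5, as if each molecule had been read 5 times, 3 were higher and 0 lower, and with both lists thinned to 20 reads 0 were called in either direction. The median difference was 5.75 points (95% interval 5.00 to 6.23) against 4.87 over all sites, and the members were read more deeply, with a median of 224.5 reads at these sites in the GV oocyte against 151.

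In the 1-cell embryo against the MII oocyte, 188 sites were shared, of which 106 were higher in the embryo and 5 lower. Over all shared sites 51.3% were higher and 2.45% lower, and among the members 56.4% and 2.66%. The median difference was 14.5 points (11.8 to 16.8) against 12.7. With a minimum of 100 reads in both lists it was 9.48 points.

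In the 1-cell embryo against the GV oocyte, 158 sites were shared, with 109 higher in the embryo and 0 lower (Fisher's exact test, adjusted), and 66.1% of all shared sites were higher and 1.05% lower. The members' share of higher sites was 69.0%, close to that of all genes. Their median difference was 21 points (16.9 to 23.7) against 19.2. In all 3 comparisons the members thus moved in the direction of the whole lists, and their share of lower sites was near the background.

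**Figure D3:**
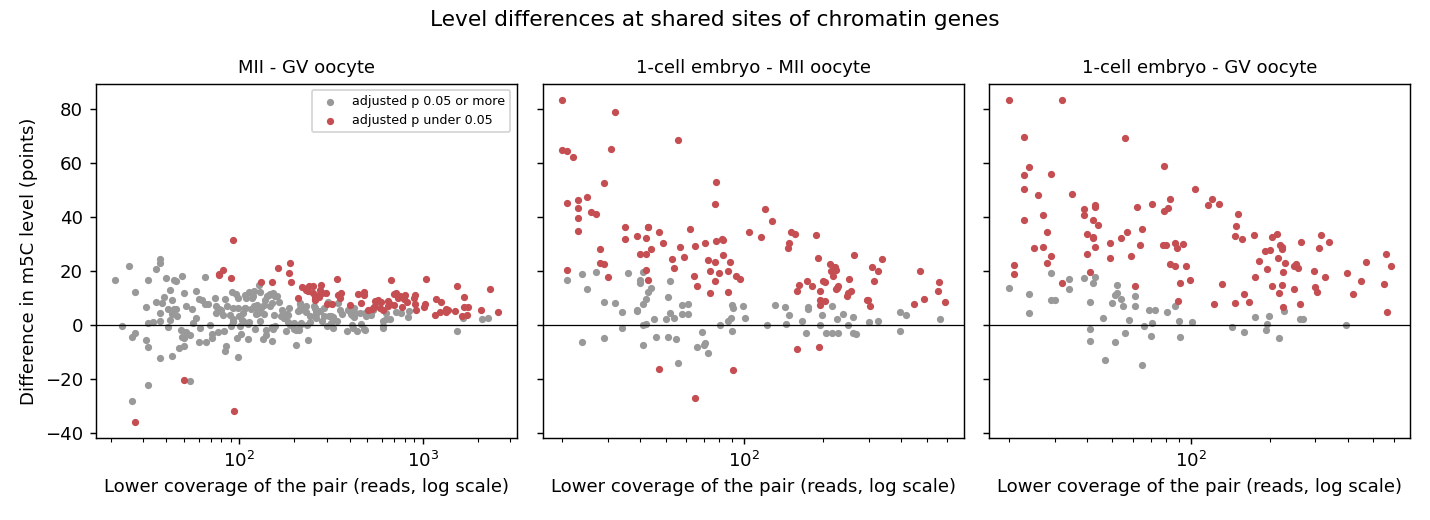
Difference in m5C level (later minus earlier stage, in points) at each shared site of the chromatin genes, against the lower coverage of the pair on a log scale, with sites of adjusted p under 0.05 in red. Most points lie above 0 in each panel (249 of 310, 159 of 188 and 145 of 158), and the largest differences against the embryo lie at low coverage.

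At the 150 sites called in every list, the median level went from 19.5% at the GV stage to 27.1% at the MII stage and 45.5% at the 1-cell stage. The level was higher at each later stage at 110 of them (73.3%, against 67.4% of the 6145 such sites of all genes) and lower at each at 3. All of these sites had to pass the limits of every list, and sites whose level fell under 10% are not seen.

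**Figure D4:**
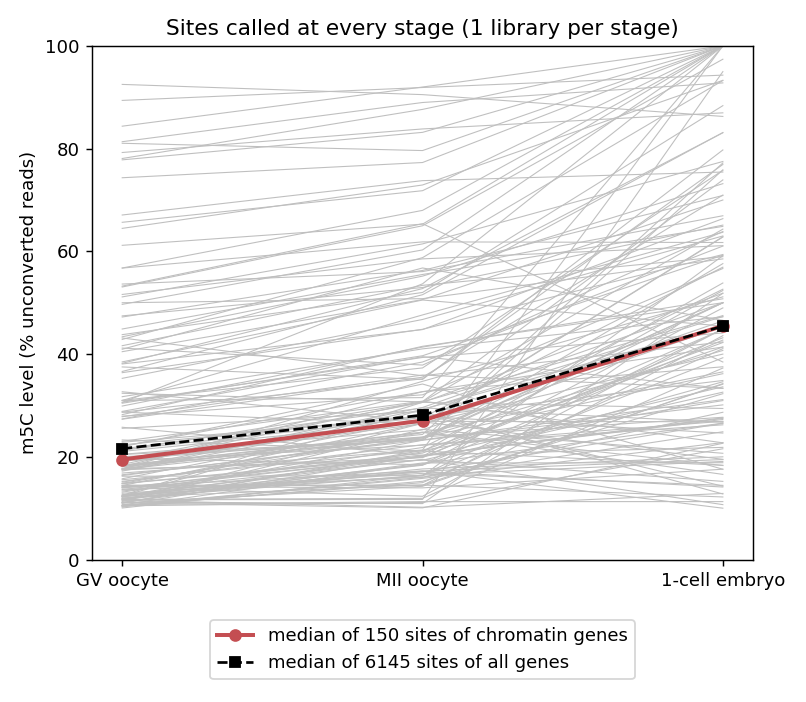
m5C level at the 150 sites of chromatin genes called in all 3 lists (grey lines, 1 per site), with their median (red circles) and the median of the 6145 such sites of all genes (black squares). Both medians go up at each step, from 19.5% and 21.6% to 45.5%.

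Lysine methyltransferases and Polycomb repressive complex 2 held 56, 74 and 79 sites in the GV oocyte, MII oocyte and embryo, in 17 of 23 annotated genes. Their every-stage sites were the most methylated of the larger classes, with medians of 39.9%, 51.4% and 61.0% at 16 sites. Of 50 sites shared by the oocytes, 14 were higher in the MII oocyte (28.0%, against 19.6% of all) and none was lower. Between the MII oocyte and the embryo, 11 of 19 were higher (57.9%, against 51.3% of all shared sites) and 1 was lower.

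Kmt2d, which methylates histone H3 at enhancers, lies on chromosome 15 from 98831669 to 98871204 and had 15 sites at the GV stage, 25 at the MII stage and 20 at the 1-cell stage. Of its 42 sites, 36 lay in the coding sequence (CDS). The 13 sites of both oocytes alone and the 17 of the embryo alone left only 2 called at every stage. The site at 98866405, 146 nt after the start of the CDS, was at 38.2% of 267 reads at the GV stage, 52.8% of 254 at the MII stage and 83.1% of 71 at the 1-cell stage. Each step at this site passed Fisher's exact test (adjusted p = 0.00888 and 1.2e-05). By contrast the Type II site at 98863906, at 79.7% of 128 reads and 89.9% of 99 reads in the oocytes, was not in the embryo list. At its 3 sites shared with the embryo, the coverage of Kmt2d differed from the MII oocyte by -1.84 on the log2 scale relative to the median of all genes, one of the strongest shifts among the members. Kmt2c, the close relative of Kmt2d, had 10, 12 and 15 sites at median levels of 24.3%, 27.2% and 23.8%.

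Setd1b, a methyltransferase of active promoters, held the largest rise between the oocytes among the member sites past the test. Its site on chromosome 5 at 123157015, in the CDS, was at 41.7% of 103 reads in the GV oocyte (Wilson 95% interval 32.7% to 51.4%) and 73.1% of 93 in the MII oocyte (63.3% to 81.1%), a difference of 31.4 points (Fisher's exact test, adjusted p = 0.000222). The embryo list did not hold this site. Ezh1, the second catalytic subunit of the Polycomb complex, held the largest rise between the MII oocyte and the embryo at 50 reads or more in both.

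The Ezh1 site on chromosome 11 at 101192819, in the 3′ UTR, was at 31.0% of 155 reads, 31.5% of 111 and 100% of 56 (interval 93.6% to 100%), so that the intervals of the oocytes overlapped and the embryo lay 68.5 points above the MII oocyte (Fisher's exact test, adjusted p = 1.06e-18). Its other 10 embryo sites ranged from 10.5% to 30.0%. Eed, the Polycomb subunit that reads the mark of its own complex, had sites that differed in course. At 89955578 on chromosome 7, in the CDS, levels were high in each list, at 79.3% of 776 reads, 83.8% of 761 and 87% of 261. At 89980795, in the 5′ UTR, the level was 53.2% of 139 reads, 65.4% of 130 and 38.5% of 65, the largest fall from the MII oocyte among the members (26.9 points lower, adjusted p = 0.00127 by Fisher's exact test). Suz12, the third core subunit, had 2 sites, both in the embryo list alone.

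Lysine demethylases, which erase histone methylation, had 36, 50 and 89 sites in 12 of 18 annotated genes, the largest relative increase of any class. Of 31 sites shared by the oocytes, 9 were higher in the MII oocyte (29.0%, against 19.6% of all such sites) and none was lower. Of 27 shared by the MII oocyte and the embryo, 17 were higher in the embryo (63.0%, against 51.3%) and none was lower. The median level of the class was the lowest but one at the GV stage, at 14.4%, and was 17% at the MII stage and 21.1% at the 1-cell stage.

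Kdm6b, which removes the Polycomb mark, had 10, 13 and 17 sites, of which 6 were called at every stage. Its CDS site at 69400282 on chromosome 11 was at 56.8% of 525 reads in the GV oocyte and 68.0% of 481 in the MII oocyte, and none of its 82 embryo reads was converted. Both steps passed Fisher's exact test (adjusted p = 0.00284 and 7.56e-12). At 69407290, 494 nt after the start of the CDS, the level was 44.9% of 753 reads, 55.5% of 854 and 64.9% of 296. Kdm4a, an eraser of heterochromatic histone methylation, had 7, 9 and 15 sites, with 7 called at every stage and 4 of 7 higher in the embryo than in the MII oocyte. Of all sites shared by these lists 51.3% passed the test as higher, and 83.8% were higher by any amount.

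Kdm2b, which recruits a variant Polycomb complex to CpG islands, was among the most deeply read members. All 4 of its oocyte sites were called at every stage, and all 4 were higher in the embryo than in the MII oocyte. Of all sites shared by these lists 51.3% were higher, at a lower median coverage. The deepest, at 122882153 on chromosome 5, was at 12.3% of 2668 reads, 17.1% of 2563 and 26.5% of 298 (Fisher's exact test, adjusted p = 1.97e-05 and 0.000429 for the 2 steps). The other 10 Kdm2b sites were called in the embryo alone, at 10.6% to 40.0%. In Kdm5c, an eraser of active histone methylation with 4, 4 and 14 sites, a CDS site was at 95% of only 20 embryo reads. Kdm1b, which is needed to set maternal imprints, had 0, 1 and 7 sites.

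Lysine acetyltransferases, which open chromatin by acetylating histones, held 17, 19 and 26 sites in 6 of 8 annotated genes, Kat14 being the one listed under another name. Of 15 sites shared by the oocytes, 3 were higher in the MII oocyte (20.0%, against 19.6% of all such sites). Of 10 shared by the MII oocyte and the embryo, 8 were higher in the embryo (80.0%, against 51.3%) and none was lower. The median difference at these 10 sites was 21.3 points, against 12.7 over all shared sites.

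Kat2a, the GCN5 acetyltransferase, had 6, 8 and 5 sites, and Kat6a, an acetyltransferase of active genes, had 4, 5 and 3. In Kat5, the TIP60 acetyltransferase, 2 neighbouring C in the CDS stood out. The first, at 5608867 on chromosome 19, was at 18.4% of 87 reads at the GV stage, 24.4% of 78 at the MII stage and 77.2% of 79 at the 1-cell stage, and the next, at 5608866, was at 37.5% of 88, 35.1% of 77 and 79.7% of 79. The oocytes did not differ beyond their intervals at either C, and the embryo was 52.9 and 44.7 points above the MII oocyte (Fisher's exact test, adjusted p = 3.01e-10 and 1.48e-07). The same reads span both C, so these are not independent sites. The coverage of Kat5 at its 3 shared sites was 1.69 higher on the log2 scale in the embryo against the MII oocyte than the median of all genes. Kat8, which acetylates histone H4, was at 15.1% of 716 reads, 23.7% of 556 and 36.2% of 257 at 127924835 on chromosome 7, and each step passed Fisher's exact test (adjusted p = 0.00147 and 0.000886).

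Deacetylases, which include the zinc-dependent Hdac enzymes and the NAD-dependent sirtuins, held 29, 29 and 20 sites in 11 of 18 annotated genes. Of 20 sites shared by the oocytes, 1 was higher in the MII oocyte (5.0%, against 19.6% of all shared sites). Of 8 shared by the MII oocyte and the embryo, 2 were higher in the embryo and 1 was lower. Their median coverage, 103, 99 and 39 reads, was below that of the members as a whole.

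Sirt7, a nucleolar sirtuin, had 6, 5 and 6 sites. Its deepest every-stage site, at 120622033 on chromosome 11 in the CDS, was at 14.0% of 293 reads, 12.3% of 203 and 43.6% of 78, so that the oocytes overlapped and the embryo was 31.3 points above the MII oocyte (Fisher's exact test, adjusted p = 3.29e-07). Hdac6, a cytoplasmic deacetylase that acts on tubulin, had 7, 6 and 4 sites on 24 to 106 reads, and none of its shared sites passed the test in any comparison. Sirt5, a mitochondrial enzyme, had a site at 84.4% of 160 reads, 92.0% of 125 and 100% of 32.

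Bromodomain and PHD finger proteins, which read acetylated and methylated histones, held 54, 69 and 90 sites in 24 of 30 annotated genes. Their CDS share, 57.4%, 62.3% and 64.4%, was below that of every class but DNA methylation, and 24.1%, 24.6% and 23.3% of their sites lay in the 5′ UTR. Between the oocytes 14 of 43 shared sites were higher in the MII oocyte and 2 lower. Of 35 sites shared by the MII oocyte and the embryo, 25 were higher in the embryo and 1 lower. The shares of higher sites were 32.6% and 71.4%, against 19.6% and 51.3% of all shared sites. Those of lower sites were 4.65% and 2.86%, against 0.965% and 2.45%.

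Phf1, a Polycomb partner that binds methylated histone H3, had 7, 10 and 12 sites, 6 of them at every stage. Its site at 26934466 on chromosome 17, 171 nt after the start of the CDS, was at 28.2% of 2559 reads at the GV stage (26.5% to 30.0%), 41.5% of 2317 at the MII stage (39.5% to 43.5%) and 50% of 586 at the 1-cell stage (46.0% to 54.0%). The 3 intervals did not overlap, and both steps passed Fisher's exact test (adjusted p = 4.85e-20 and 0.00072). Phf13, a reader of active promoters, had 7, 7 and 11 sites, and all 6 sites called at every stage were higher in the embryo than in the GV oocyte. Of all sites shared by these lists 66.1% passed the test as higher, and 90.4% were higher by any amount. Brd1, a subunit of acetyltransferase complexes, had a 5′ UTR site on chromosome 15 at 88734057 that went the other way in the embryo. It was at 13.3% of 532 reads, 19.4% of 551 and 10.7% of 159, and lower in the embryo than in the MII oocyte (Fisher's exact test, adjusted p = 0.0254).

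Phf20l1, another reader of methylated lysine, held one of the 3 falls between the oocytes. Its 5′ UTR site on chromosome 15 at 66577767 was at 32.0% of 50 reads in the GV oocyte and 11.6% of 190 in the MII oocyte (20.4 points lower, Fisher's exact test, adjusted p = 0.00811). With both lists thinned to 20 reads the difference was 5.00 points in the other direction and did not pass. Phf19, a Polycomb partner, fell on under 50 reads in each list. The last fall belonged to Smarcc1, a core remodelling subunit. Its CDS site at 110190939 on chromosome 9 was at 60.6% of 142 reads and 28.7% of 94, 31.8 points lower (Fisher's exact test, adjusted p = 3.62e-05). The lowest difference between the oocytes at any member site, past the test or not, was -35.9 points, in a bromodomain or PHD finger gene.

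Remodelling complex subunits, which slide or evict nucleosomes, held 132, 174 and 206 sites, with 81.1%, 85.1% and 84.5% in the CDS. The sites lay in 38 of 42 annotated genes and in Chd3os, which was not counted among those 42. Between the oocytes 28 of 116 shared sites were higher in the MII oocyte and 1 lower (24.1% and 0.862%, against 19.6% and 0.965% of all shared sites). Between the MII oocyte and the embryo 32 of 64 were higher in the embryo and 1 lower.

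Arid1b and Arid1a are alternative DNA-binding subunits of the BAF complex, and they differed in how far the lists overlapped. Arid1b, on chromosome 17 from 4994332 to 5347656, had 14, 17 and 26 sites, of which 12 were called at every stage. Arid1a, on chromosome 4 from 133679008 to 133756769, had 5, 7 and 23 sites, of which 3 were. The median coverage of their embryo sites was 159.5 reads for Arid1b and 50 for Arid1a. Arid1b held 2 of the most methylated sites of the class, at 5341765 with 81.4% of 1078 reads, 89.0% of 1035 and 92.8% of 417, and at 4995476 with 92.5% of 267, 90.5% of 211 and 86.3% of 51. The first was higher in the MII oocyte than in the GV oocyte (Fisher's exact test, adjusted p = 2.24e-05), and no step of the second passed the test.

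Smarcd2, another BAF subunit, had 6, 6 and 17 sites. At 106272661 on chromosome 11, 47 nt after the start of the CDS, the level was 21.5% of 191 reads in the GV oocyte and 42.6% of 162 in the MII oocyte, 21.1 points higher (Fisher's exact test, adjusted p = 0.000439). At 106272720, 12 nt before the start, it was 78.1% of 292, 87.6% of 259 and 100% of 87. Smarca5, the ISWI ATPase, had all 6 of its sites in the 5′ UTR. The one at 80739202 on chromosome 8 was at 22% of 551 reads, 34.2% of 477 and 17.6% of 91, higher in the MII oocyte than in the GV oocyte (adjusted p = 0.000238 by Fisher's exact test) and lower in the embryo than in the MII oocyte (adjusted p = 0.00487).

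Chd7, a remodeler of enhancers, and Baz2a, which silences ribosomal genes, were called mostly in the oocytes, with 8, 10 and 7 sites and 9, 10 and 5 sites. Chd7 had 1 site at every stage and Baz2a had 0. Smarcb1, a core BAF subunit, had low levels at its Type II 3′ UTR site, 11.6% of 606 reads, 10.2% of 481 and 12.9% of 101, with no step past the test.

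Genes of DNA methylation were the most deeply read class, with a median of 1221 reads at the GV stage, 644 at the MII stage and 193 at the 1-cell stage, and held 28, 35 and 47 sites in 5 genes. Between the oocytes 16 of 25 shared sites were higher in the MII oocyte and none was lower. Of 22 sites shared by the MII oocyte and the embryo, 10 were higher in the embryo and 1 lower. The higher sites were 64.0% and 45.5%, against 19.6% and 51.3% of all shared sites. The median difference between the oocytes was 5.55 points, near the 5.75 of all members, at 1448 against 224.5 reads in the GV oocyte. How far depth set the count of higher sites was not tested.

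Tet3, the oxidase that acts on the paternal genome in the zygote, lies on chromosome 6 from 83362373 to 83459084 and had 16, 18 and 29 sites, 14 of them at every stage. They lay in the 5′ UTR (5), the CDS (13) and the 3′ UTR (13). The adjacent CDS sites at 83368814 and 83368813 were at 89.4% and 51.1% of 1669 and 1670 reads at the GV stage, 91.9% and 61.5% of 1705 and 1689 at the MII stage, and 94.3% and 77.5% of 563 and 560 at the 1-cell stage. At 83455434, in the 5′ UTR, the level was 42.9% of 161 reads, 58.8% of 131 and 93.3% of 104, and the embryo was 50.4 points above the GV oocyte (Fisher's exact test, adjusted p = 2.45e-17).

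In the 3′ UTR of Tet3, the site at 83363112 was at 30.6% of 327 reads at the GV stage, 53.7% of 190 at the MII stage and 100% of 23 at the 1-cell stage, with both steps past Fisher's exact test (adjusted p = 7.36e-06 and 1.03e-05). The Type II site at 83364716 was at 56.7% of 1089 reads, 61.8% of 844 and 61.7% of 81, and no step passed. The site at 83364721, 5 bases upstream in the transcript, was at 40.5% of 1018, 50.6% of 737 and 70.0% of 80. The 13 Tet3 sites of the embryo alone ranged from 10.6% to 35.0%.

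Dnmt1, the maintenance DNA methyltransferase, had 5, 5 and 11 sites, all in the CDS, and the same 5 were called at every stage. All 5 were higher in the MII oocyte than in the GV oocyte, where 19.6% of all shared sites were higher. At 20909236 on chromosome 9, the deepest member site of all, the level was 18.3% of 6190 reads (17.3% to 19.2%), 24.8% of 1759 (22.8% to 26.9%) and 16.6% of 193 (12.0% to 22.5%). It was higher in the MII oocyte than in the GV oocyte (Fisher's exact test, adjusted p = 1.29e-07), but lower in the embryo than in the MII oocyte (adjusted p = 0.0211). At 20908576 it was 20.5% of 4897 reads, 25.3% of 1346 and 45.4% of 216, and at 20911440 it was 67.1% of 5851, 73.8% of 1689 and 75.4% of 167. Sites of 1 transcript thus differed in whether the embryo was above or below the MII oocyte.

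The coverage of Dnmt1 at its 5 sites differed by -1.61 on the log2 scale from the GV to the MII oocyte and by -1.54 from the MII oocyte to the embryo, each relative to the median of all genes, the strongest shift between the oocytes among members with 3 or more shared sites. On the same scale between the oocytes the value was 0.61 for Setd5 and -0.55 for Prdm16, and none of these coverage shifts was tested. These are values of coverage at called sites and not of transcript abundance. Dnmt3a, a de novo DNA methyltransferase, had 4, 8 and 3 sites, Dnmt3b 3, 4 and 2, and Dnmt3l, their cofactor, had 2 sites in the embryo alone, one of them at 72.6% of 164 reads.

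**Figure D5:**
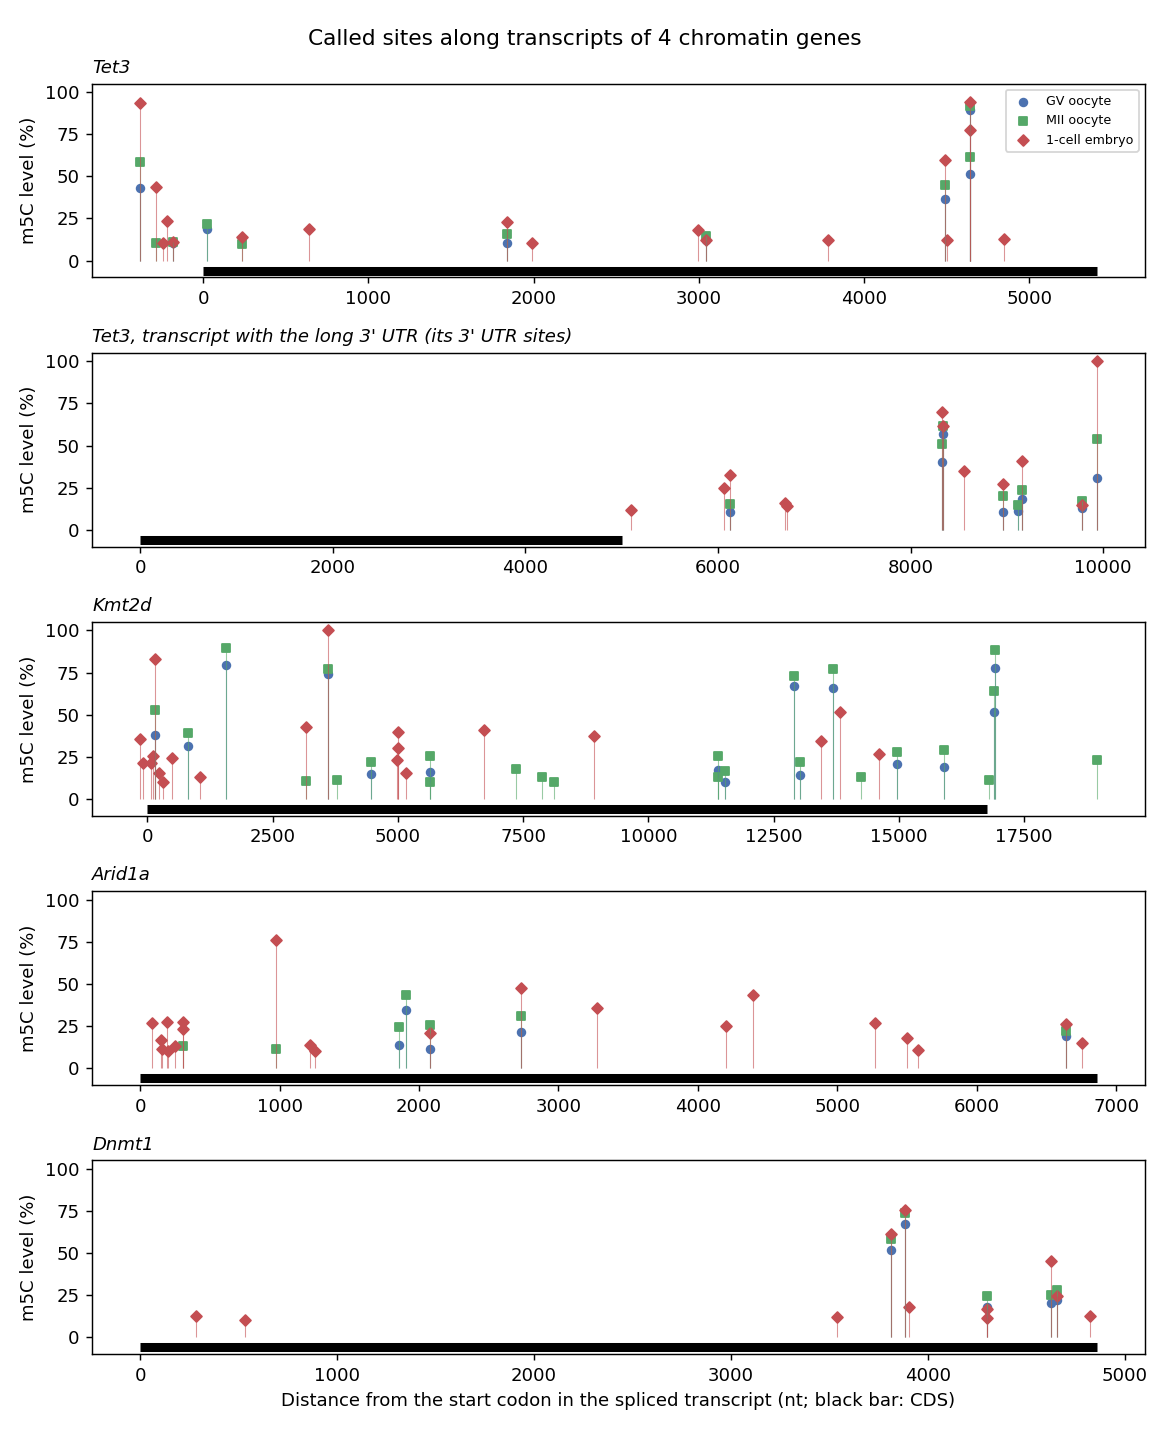
m5C level of called sites in the GV oocyte (blue circles), MII oocyte (green squares) and 1-cell embryo (red diamonds) against the distance from the start codon in the spliced transcript, for Tet3 (18 sites on its reference transcript and 13 on a transcript with a longer 3′ UTR), Kmt2d (42), Arid1a (23 of 25) and Dnmt1 (11), with the CDS as a black bar. The Dnmt1 sites of every stage lie in the last part of its CDS, and most Arid1a sites carry an embryo point alone.

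PRDM factors, zinc finger proteins with a SET-like domain, held 15, 19 and 17 sites in 6 of 14 annotated genes on a median of 77, 72 and 37 reads. None of the 10 sites shared by the oocytes passed the test, where 19.6% of all shared sites were higher and 0.965% lower. Prdm6, a regulator of smooth muscle, had 3, 7 and 4 sites. Prdm10, a zinc finger factor of early development, had 4, 2 and 6, and its every-stage site, of Type II, was at 12.5% of 80 reads, 30.6% of 49 and 29.4% of 34, with no step past the test.

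By position, the member sites lay in the CDS more often than the sites of all genes. The CDS share was 75.5% (Wilson 95% interval 70.8% to 79.6%) against 68.1% at the GV stage, 78.5% (74.5% to 81.9%) against 68.6% at the MII stage and 79.6% (76.1% to 82.7%) against 73.3% at the 1-cell stage. The 3′ UTR share was lower, at 13.4%, 12.8% and 8.01% against 18.7%, 18.1% and 14.6%. The members' transcripts also hold more of their C in the CDS, 69.0% against 57.3% over all genes with a site. Within the CDS, the first codon position held 43.5%, 40.6% and 40.3% of member sites against 37.5%, 37.6% and 36.9% of all. At 50 reads or more in the embryo the CDS shares were 78.5% (73.9% to 82.4%) and 75.5%, within the interval.

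Type II sites made up 4.90% (3.12% to 7.62%) of member sites at the GV stage, 5.12% (3.46% to 7.5%) at the MII stage and 3.31% (2.13% to 5.11%) at the 1-cell stage, against 5.91%, 5.03% and 3.44% over all sites. The intervals held the value of all sites at each stage. Phf5a held the clearest change among the Type II sites shown above, at 53.6% of 632 reads, 56.1% of 651 and 66.9% of 248, where the embryo was above the MII oocyte (Fisher's exact test, adjusted p = 0.00744). At Type I member sites the mean number of G among the next 4 bases was 2.15, 2.12 and 1.96, against 2.23, 2.21 and 1.98 over all. In predicted folds, the C itself was paired at 55.7%, 57.8% and 63.8% of member sites and the base 2 after it at 75.9%, 72.7% and 69.4%. Over all sites the values were 57.7%, 58.6% and 60.1% for the C and 73.2%, 72.8% and 68.6% for that base.

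The 34 textbook genes of the oocyte and early embryo with a site held 151, 187 and 270 sites, given here for most of the genes in the order GV oocyte, MII oocyte and embryo where not given above. Most erasers and writers among them had more sites in the embryo than in the GV oocyte. The lists of all genes also grew, from 15910 sites at the GV stage to 24996 at the 1-cell stage. Kmt2d, Dnmt3a, Dnmt3b, Kat6a, Ehmt1 and Ehmt2 had fewer sites in the embryo than in the MII oocyte. The demethylase Kdm1a had 2, 2 and 6 sites, and Setdb1, which silences retroelements, had 2, 2 and 7. Ezh1 had 4, 4 and 11 and Eed 3, 2 and 4. The euchromatic methyltransferases Ehmt1 and Ehmt2 had 1, 1 and 0 and 0, 1 and 0 sites. The deacetylases Hdac2 and Hdac3 had 1, 0 and 0 and 2, 1 and 2, and Kat5 and Kat8 had 4, 3 and 5 and 1, 1 and 4. The bromodomain protein Brd2 had 3, 2 and 4.

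Among the remodelers of the same list, Smarca4, the BAF ATPase of the maternal genome activation program, had 3, 3 and 10 sites, Smarca5 3, 3 and 3, Smarcc1 3, 4 and 0, and Smarcb1 2, 3 and 6. Chd4, the NuRD ATPase, had 4, 7 and 5, Chd8, a remodeler tied to Wnt targets, 6, 6 and 12, Ino80, the ATPase of its complex, 6, 8 and 3, and Baz1b 6, 7 and 11. Over the whole list, 49 of 136 sites shared by the oocytes were higher in the MII oocyte and 1 lower, and 50 of 94 were higher in the embryo than in the MII oocyte and 3 lower. Against the GV oocyte, 54 of 81 were higher in the embryo and none was lower. Of all shared sites of all genes, 19.6%, 51.3% and 66.1% were higher in the same comparisons and 0.965%, 2.45% and 1.05% lower.

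Partners of these enzymes outside the naming rule were counted in the same way. Of 82 related chromatin genes, such as the acetyltransferases Ep300 and Crebbp and the Polycomb subunits Rnf2 and Bmi1, 65 had a site, with 172, 240 and 294 sites in the GV oocyte, MII oocyte and embryo. At shared sites 40 of 155 were higher in the MII than in the GV oocyte and none was lower, 54 of 103 were higher in the embryo than in the MII oocyte and 6 lower, and 50 of 80 were higher in the embryo than in the GV oocyte and 2 lower. Their median differences were 5.44, 12.5 and 20.9 points. Over all shared sites the medians were 4.87, 12.7 and 19.2 points, with 19.6%, 51.3% and 66.1% of sites higher and 0.965%, 2.45% and 1.05% lower. Crebbp had 6, 9 and 14 sites and Ep400, an ATPase of the TIP60 complex, had 7, 14 and 24.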

How the data were processed

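Bisulfite libraries of mouse GV oocytes, MII oocytes and 1-cell embryos were compared, with 1 library per stage. Per the labels and the methods of the study, the authors trimmed reads with cutadapt 1.13 and Trimmomatic 0.36, aligned them to a converted GRCm38 genome and kept reads with at most 3 unconverted C. The deposited lists hold, per called site, a coverage count of reads, the m5C level as the fraction of unconverted reads, and a p-value that the authors computed with a binomial test, taking each gene's own conversion rate as background. All deposited sites had at least 20 reads, a level of at least 10% and at least 5 unconverted reads. PCR reads without molecular identifiers are not independent molecules, so that intervals cover counting error only.

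Unconverted reads were recovered as level times coverage. Shared sites were compared with Fisher's exact test, two-sided, adjusted over all shared sites of all genes (scipy 1.17.1, pandas 2.3.3 and numpy 2.4.6 under Python 3.11.15), and the code was tested on simulated data. Shares carry Wilson and counts exact Poisson 95% intervals, and medians have order-statistic intervals. Sites were placed in GENCODE M21 transcripts (pysam 0.24.0, samtools 1.23.1), with the CDS before the UTR where transcripts differed. Windows of 101 nt were folded with ViennaRNA 2.7.2. Figures were drawn with matplotlib 3.10.9.

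Named were, per class, the 2 genes with most sites and the deepest site of every stage. For each comparison the 3 largest called rises and falls at 50 reads or more were added, with the 3 genes leading in sites of the embryo alone or of both oocytes alone, the 3 deepest Type II sites of every stage, and the 3 genes with the largest relative coverage shift over at least 3 shared sites. Further genes and sites of named genes were chosen after their values were seen. The members, classes and lists were chosen with earlier results of these data known. Alternatives were coverage minima of 50 and 100 reads, a level minimum of 20%, reads divided by 5, reads thinned to 20, the UTR before the CDS, and members without the Phf, Prdm and Arid names. The site counts of 1 member of the textbook list are not reported here.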

Additional observations from a re-analysis of the deposited data

How the results depend on the processing

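No paired analysis was possible because there was 1 library per stage, and for the same reason no replicate could be left out. Counts of called sites fell where an alternative left fewer reads or sites by construction. In the MII oocyte against the GV oocyte, 3 member sites were higher with reads divided by 5, as if each molecule were read 5 times, and 0 with both lists thinned to 20 reads; 0 were lower under a minimum of 100 reads, under reads divided by 5 and under thinning, and 1 was lower without the Phf, Prdm and Arid names. With a level minimum of 20% the median difference there was 7.03 points. In the embryo against the MII oocyte, 46 were higher and 2 lower at 100 reads or more, 20 and 0 with reads divided by 5, and 16 and 0 after thinning, and the median difference was 10.9 points at 50 reads or more and 9.48 at 100. In the embryo against the GV oocyte, 52 were higher at 100 reads or more, 47 with reads divided by 5 and 24 after thinning. The Phf20l1 site reversed after thinning, to 5.0 points higher in the MII oocyte. All 5 named sites of the oocyte comparison and the falls of Eed, Smarca5 and Brd1 lost their call with reads divided by 5 and after thinning, the Kat5 sites against the MII oocyte lost it with reads divided by 5, and Ezh1 kept it. With reads divided by 5 the differences themselves moved little, to 30.8 points for Setd1b, 21.9 for Tet3, 21.4 for Smarcd2, -32.9 for Smarcc1, -19.5 for Phf20l1, -26.9 for Eed, -17.7 for Smarca5 and -9.41 for Brd1. In the GV oocyte the median coverage was 227 and 292 reads at minima of 50 and 100, where the latter gave 80.5% in the CDS and 7.97% in the 5′ UTR; a level minimum of 20% left 167 sites with a median of 34.0%, and thinning 156 with 35.0%. In the MII oocyte the coverage was 205.5 and 281 reads, with 298 sites at 100 reads or more, 229 sites with a median of 30.8% at the level minimum, and 217 with 35.0% after thinning. In the embryo the minimum of 50 reads left 358 sites with a median level of 18.2% and a coverage of 96 reads, and that of 100 left 171 sites with 17.1%, 195 reads, 83.6% in the CDS and 4.68% in the 3′ UTR; the level minimum left 343 sites with 35.0% and 46 reads, and thinning 315 with 40.0%. Placing the UTR before the CDS gave CDS shares of 69.2%, 71.9% and 69.9% and 3′ UTR shares of 19.1%, 19.0% and 16.7% in the GV oocyte, MII oocyte and embryo. The other 113 values of stages and comparisons moved by less than their error or by less than 1.5 times.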

Other observations

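In the embryo list 15 member sites had no converted read, against 0 in each oocyte list, and over all genes the numbers were 551, 2 and 8 for the embryo, GV oocyte and MII oocyte. The 15 lay in Arid1a, Brd9, Chd8, Chd9, Ezh1, Kat6a, Kdm6b, Kmt2d, Phf13, Phf2, Phf21b, Sirt5, Sirt7, Smarcd2 and Tet3. Smarcd2 had 87 embryo reads at its site, Kdm6b 82 and Ezh1 56, and the other 12 sites had 20 to 32 reads each. The site of Kat6a was at 49.7% of 159 reads and 60.3% of 141 reads in the GV and MII oocytes, before 100% of 23 in the embryo. One further embryo site was read far more deeply than the rest of its gene, a Dnmt1 site at 10.4% of 1889 reads called in the embryo alone.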
